A study of Mus musculus with 14 samples.

Results

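The prostaglandin genes described here are 10 mouse genes chosen by name: Hpgd, Hpgds, Ptgs1, Ptgs2, Ptges, Ptges2, Ptges3, Ptger2, Ptger4 and Slco2a1. All 10 were found among the 52550 genes of the count table, and their levels were read in 14 RNA-seq libraries. The libraries came from C57BL/6 mice aged 8 to 20 weeks. The 4 WT HSPC libraries and the 4 Mir139KO HSPC libraries were made from femur and tibia marrow enriched for haematopoietic stem and progenitor cells (HSPC) by lineage depletion, from wild-type mice and from mice without the microRNA gene Mir139. The 6 MLL-AF9 libraries came from wild-type HSPC that were cultured overnight with cytokines, infected with a retrovirus carrying the leukaemia fusion gene MLL-AF9, and passed through at least 2 replatings in methylcellulose. In 3 of these cultures (neo) the vector was pMSCV-MLL-AF9-neo with neomycin selection, and in the other 3 (puro) it was pMSCV-MLL-AF9-puro with puromycin selection. All MLL-AF9 cultures carried intact Mir139. The labels do not say, library by library, whether the HSPC were lysed right after isolation or cultured first. No group is labelled as HSPC cultured like the MLL-AF9 cells but without the fusion, so an effect of culture and an effect of the fusion cannot be told apart.

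Prostaglandins are short-lived lipid signals made from arachidonic acid. The cyclooxygenases Ptgs1 (COX-1) and Ptgs2 (COX-2) convert arachidonic acid to prostaglandin H2, which the terminal synthases Ptges, Ptges2 and Ptges3 turn into prostaglandin E2 (PGE2) and the synthase Hpgds into prostaglandin D2. PGE2 acts on haematopoietic stem cells through the receptors EP2 (gene Ptger2) and EP4 (gene Ptger4), which raise cAMP. The signal ends when the transporter Slco2a1 carries prostaglandins into the cell and the enzyme 15-hydroxyprostaglandin dehydrogenase, the product of Hpgd, oxidises them.

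The sequences that connect Mir139 with Hpgd are shown first, because the study built a reporter around a predicted miR-139 site in the Hpgd transcript. The 2 mature microRNAs of Mir139 (RefSeq, GRCm38.p6) lie at chr7:101475382-101475403 and chr7:101475418-101475439 on the plus strand, with the seed, bases 2 to 8, in capitals. The wild-type reporter oligo held 54 bases of the Hpgd transcript, of which the 30 around the mutated bases are shown. These 30 lie at chr8:56320514-56320543 on the plus strand of GRCm38, at bases 309 to 338 of the 838-base 3' UTR in the last of 7 exons. Capitals in this pair mark the 3 bases that the mutated reporter changed, A14C, G15T and A16C, counted from 1 at the 5' end of the printed site.
miR-139-5p: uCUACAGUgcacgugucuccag
miR-139-3p: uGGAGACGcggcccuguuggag
Hpgd site, wild-type: gtcatcttaaaggAGAtacttgaattgtta
Hpgd site, mutated: gtcatcttaaaggCTCtacttgaattgtta
The 7-base match to the miR-139-5p seed (ACTGTAG) was found 0 times in the Hpgd 3' UTR, and in 11% of the longest 3' UTRs of 21039 genes. The match to the miR-139-3p seed (CGTCTCC) was also found 0 times, and in 3.16% of these 3' UTRs. Within the 30 bases shown, the longest stretch of the wild-type site that pairs with miR-139-5p was 5 bases (GGAGA, opposite miRNA bases 16 to 20). It fell to 3 bases in the mutated site. The rest of the reporter was not searched for such pairing. GGAGA occurs in 64.2% of the 3' UTRs. Only unbroken pairing was searched, so these letters do not decide whether miR-139 acts on Hpgd. From its luciferase assays the study reported Hpgd as a direct target of miR-139.

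The RNA was total RNA depleted of ribosomal RNA, and each library held 35016668 to 45877994 counts over genes. Levels are given as CPM, counts scaled to a common library size after TMM scaling (a correction for differences in RNA make-up between libraries), and 3 counts in a library correspond to 0.0550 to 0.127 CPM. The HSPC libraries did not form a single block. In WT replicates 1 and 2 and Mir139KO replicates 2 and 3, the gene Gm26917 took 17.0% to 21.9% of all counts. In WT replicates 3 and 4 and Mir139KO replicates 1 and 4 it took 32.7% to 35.4%, against 7.55% to 10.4% in the MLL-AF9 libraries. Summed HSPC markers stood at 381 to 558 CPM over the 8 HSPC libraries, at 46.7 to 120.4 CPM in the neo cultures and at 90.5 to 139.4 CPM in the puro cultures. The summed MLL fusion targets Hoxa9, Hoxa10 and Meis1 stood at 18.3 to 38.3 CPM in HSPC and 313 to 1176 CPM in MLL-AF9. Markers of some mature cells were lower in the MLL-AF9 libraries, and those of others were lower only in part. Mast cell, basophil and eosinophil markers summed to 811 to 1867 CPM in HSPC and 5.35 to 25 CPM in MLL-AF9, and megakaryocyte and platelet markers to 230 to 1035 CPM and 21.8 to 54.0 CPM. Lymphoid markers summed to 105 to 205 CPM and 3.8 to 13.0 CPM. Neutrophil markers overlapped widely, at 370 to 10594 CPM in HSPC and 265 to 3799 CPM in MLL-AF9. Against WT 2 of 8 were lower and 6 did not pass, and against Mir139KO 5 were lower and 3 did not pass. Over all genes tested 29.4% were called lower against WT and 31.9% against Mir139KO, so the 2 of 8 against WT lie under the background. Of 10 monocyte and macrophage markers 7 were lower and 1, Adgre1, was higher in MLL-AF9. Fewer cells of a type and less RNA per cell cannot be told apart in such bulk samples.

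The way reads were assigned to genes set what could be measured for the receptors. Of 849 protein-coding genes whose whole span lies inside the span of other genes, with less than 10% of their exon bases in exons of other genes, 838 (98.7%) had 0 counts in all 14 libraries. Of 12012 protein-coding genes that overlap no other gene, 2422 (20.2%) had 0 counts in all libraries. Ptger2 (chr14:44988195-45003820, plus strand) lies entirely inside the antisense gene Gm17173 and had 0 counts in all 14 libraries. Its 0 therefore says nothing about the level of EP2. Mir139 lies inside Pde2a and also had 0 counts in all 14 libraries, so its deletion could not be checked from the table. Of the other members, Ptger4 had 3321 of its 6648 exon bases inside other genes. Ptgs1 had 3.81%, Slco2a1 1.68% of their exon bases there, and the remaining 6 genes none.

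Promoters were read because several members, Hpgd and both cyclooxygenases among them, were higher in the MLL-AF9 cultures, as described gene by gene further on. The 250 bases before the start of Hpgd (chr8:56294302-56294551), Ptgs1 (chr2:36230176-36230425) and Ptgs2 (chr1:150099781-150100030), all on the plus strand of GRCm38.p6 in RefSeq, are shown for the degrading enzyme and the cyclooxygenases. Capitals mark matches to 1 of 6 motifs searched on both strands.
Hpgd promoter: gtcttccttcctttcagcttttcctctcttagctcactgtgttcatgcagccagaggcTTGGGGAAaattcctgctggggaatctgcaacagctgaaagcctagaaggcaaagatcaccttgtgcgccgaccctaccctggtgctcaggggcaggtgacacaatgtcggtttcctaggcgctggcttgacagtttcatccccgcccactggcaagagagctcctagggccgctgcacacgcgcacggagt
Ptgs1 promoter: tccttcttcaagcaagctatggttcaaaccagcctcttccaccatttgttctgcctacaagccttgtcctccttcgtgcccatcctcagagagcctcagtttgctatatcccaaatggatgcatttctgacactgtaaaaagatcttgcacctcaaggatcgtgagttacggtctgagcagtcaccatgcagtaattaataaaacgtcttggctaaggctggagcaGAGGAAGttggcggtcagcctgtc
Ptgs2 promoter: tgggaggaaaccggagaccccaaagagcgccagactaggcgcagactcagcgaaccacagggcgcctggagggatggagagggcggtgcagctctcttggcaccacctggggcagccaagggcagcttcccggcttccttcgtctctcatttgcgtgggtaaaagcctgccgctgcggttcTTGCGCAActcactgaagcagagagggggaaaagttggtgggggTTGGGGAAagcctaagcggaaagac
The motifs were the TATA box (TATAAA, in 12.4% of 32851 promoters of this length), the cAMP response element (TGACGTCA, 1.55%), a C/EBP motif (TTNNGNAA, 36.8%), a HOXA9 motif (TGATTTAT, 0.837%), a PU.1 motif (GAGGAAG, 10.6%) and the CCAAT box (CCAAT, 33.8%). C/EBP and PU.1 are factors of myeloid cells. Hpgd held 1 C/EBP match, 192 bases before its start. Ptgs2 held C/EBP letters at 2 places, 69 and 25 bases before the start, the first on both strands. Ptgs1 held 1 PU.1 match, 24 bases before the start. Among the other members that rose in MLL-AF9, Hpgds held 2 C/EBP matches and 1 PU.1 match, and Ptges 1 C/EBP match. Of the members that fell, Ptges2 held 1 C/EBP match, and Slco2a1 held 1 PU.1 match, 76 bases before its start, and the only TATA box, at 29 bases. Ptger2, which was not measured, held 2 C/EBP matches and a CCAAT box, and Ptger4 a CCAAT box. The letters of the cAMP response element and of the HOXA9 motif were found in 0 of the 10 members' promoters. The GC content of these 3 promoters was 56.8% for Hpgd, 48.0% for Ptgs1 and 61.6% for Ptgs2, beside a median of 52.4% over all promoters. These matches are letters in a window and no measure of binding.

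Hpgd (chr8:56294585-56321043, plus strand) had low counts in every HSPC library and high counts in the MLL-AF9 cultures. In WT HSPC its level was 2.79, 2.17, 0.726 and 1.54 CPM, from 22 to 133 counts a library. In Mir139KO HSPC it was 1.82, 2.34, 1.56 and 1.58 CPM. The neo cultures reached 14.3, 145 and 50.3 CPM, and the puro cultures 350, 738 and 404 CPM. The lowest MLL-AF9 culture was above the highest HSPC library, and the cultures themselves spread from 14.3 through a median of 247 to 738 CPM. Against WT HSPC the log2 fold change of Hpgd was 7.25 ± 1.12 (SE, n = 6 and 4), a 152-fold rise (edgeR quasi-likelihood test, Benjamini-Hochberg adjusted p = 0.000222). Against Mir139KO HSPC it was 7.24 ± 1.07, 151-fold (edgeR adjusted p = 8.75e-05). These comparisons share the 6 MLL-AF9 libraries. The promoter and the 3' UTR site of Hpgd printed above belong to the gene with the largest of the members' fold changes. The rise was 5.25 (log2) against WT with the neo cultures alone and 8.09 with the puro cultures alone, and it was 5.75 after a correction for GC content, all past the threshold of adjusted p under 0.05.

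**Figure D1:**
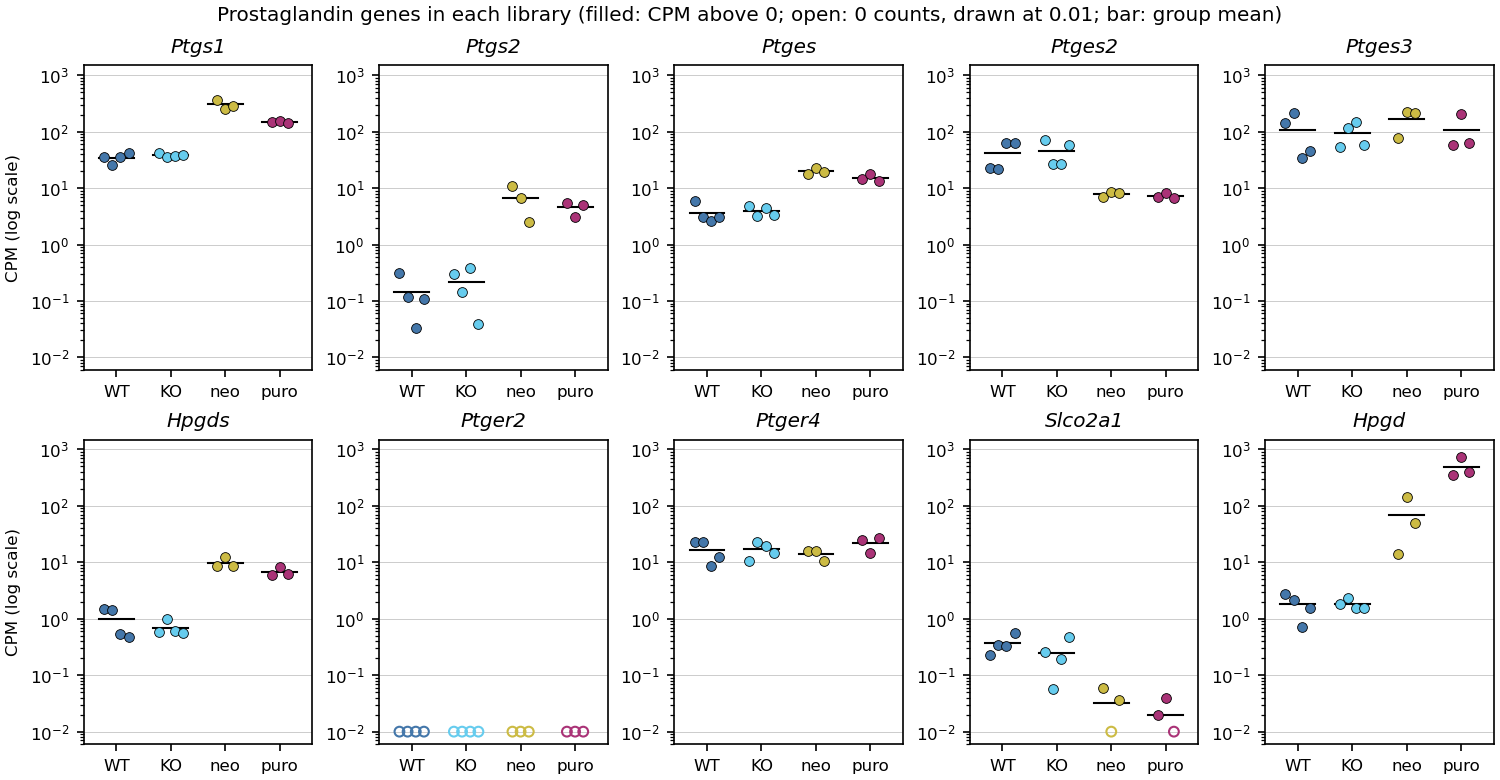
Level of each of the 10 genes in each of the 14 libraries, in CPM on a log axis, for WT HSPC, Mir139KO HSPC, neo MLL-AF9 and puro MLL-AF9. Each point is a library, the bar is the group mean, and open points drawn at 0.01 stand for 0 counts. Hpgd spans 0.726 to 738 CPM and the MLL-AF9 points lie above all HSPC points for Hpgd, Hpgds, Ptgs1, Ptgs2 and Ptges, and below them for Ptges2.

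Both cyclooxygenases rose in MLL-AF9. Ptgs1 (chr2:36230426-36252272), the form that many cells make at all times, was at 35.4, 25.4, 35.8 and 41.7 CPM in WT HSPC and at 41.5, 35.9, 37.1 and 38.7 CPM in Mir139KO HSPC. It reached 365, 254 and 290 CPM in the neo cultures and 146, 152 and 141 CPM in the puro cultures. The HSPC libraries thus lay close together, and the neo cultures lay above the puro cultures without overlap. The log2 fold change of Ptgs1 was 2.68 ± 0.37 against WT (6.42-fold, edgeR adjusted p = 0.000103) and 2.52 ± 0.33 against Mir139KO (5.73-fold, edgeR adjusted p = 3.39e-05).

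Ptgs2 (chr1:150100031-150108227), the form that inflammatory signals and growth factors induce, was close to the detection limit in HSPC. It had 15, 5, 1 and 3 counts in WT HSPC and 7, 5, 16 and 1 counts in Mir139KO HSPC, or 0.0330 to 0.391 CPM. The neo cultures were at 10.7, 6.77 and 2.55 CPM and the puro cultures at 5.51, 3.04 and 5.09 CPM. All 6 MLL-AF9 cultures lay above all 8 HSPC libraries. From the summed counts, 1728 in MLL-AF9 against 24 in WT, the ratio was 34.5 (95% exact interval 23.1 to 54.0, counting error only). Ptgs2 passed the count filter in both comparisons only through the MLL-AF9 libraries, where it is high, so it had to differ. Its fitted log2 fold change is therefore given as a description. It was 5.19 ± 0.68 against WT (edgeR adjusted p = 7.65e-05) and 4.62 ± 0.64 against Mir139KO (edgeR adjusted p = 5.54e-05).

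The 3 genes of PGE2 synthases went different ways. Ptges (chr2:30889471-30929863, minus strand), the inducible membrane enzyme that works with COX-2, was at 5.79, 3.03, 2.64 and 3.01 CPM in WT HSPC and at 4.74, 3.22, 4.40 and 3.35 CPM in Mir139KO HSPC. In MLL-AF9 it was at 18.1, 22.7 and 19.0 CPM (neo) and 14.2, 18.0 and 13.1 CPM (puro). The groups did not overlap, and the 2.25 ± 0.33 log2 rise against WT was 4.76-fold (edgeR adjusted p = 0.000144), with 2.12 ± 0.26 against Mir139KO (edgeR adjusted p = 2.36e-05). Ptges2 (chr2:32395896-32405772), a second membrane-associated synthase, fell instead. It was at 22.4, 22.1, 63.1 and 62.3 CPM in WT HSPC, at 72.0, 26.5, 26.7 and 57.6 CPM in Mir139KO HSPC, and at 6.72 to 8.69 CPM (median 7.60) in the 6 MLL-AF9 cultures. The log2 fold change of Ptges2 was −2.51 ± 0.34 against WT (5.68-fold lower, edgeR adjusted p = 0.000101) and −2.62 ± 0.30 against Mir139KO (6.16-fold lower, edgeR adjusted p = 1.44e-05). The ratio of Ptges2 to Ptges, in CPM per kb of exon, was 3.00 to 18.6 in the 8 HSPC libraries and 0.298 to 0.398 in the 6 MLL-AF9 cultures.

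Ptges3 (chr10:128058954-128077272), a cytosolic protein known both as a PGE2 synthase and as the HSP90 cochaperone p23, did not pass the test in either direction. It was at 144, 213, 33.6 and 45.2 CPM in WT HSPC and at 52.4, 117, 151 and 57.3 CPM in Mir139KO HSPC. The MLL-AF9 cultures fell into a high set (neo 2, neo 3 and puro 5, at 222, 213 and 203 CPM) and a low set (neo 1, puro 4 and puro 6, at 76.9, 58.8 and 61.7 CPM). The vectors were mixed in both sets. The log2 fold change was 0.33 ± 0.57 against WT (edgeR adjusted p = 0.629) and 0.52 ± 0.47 against Mir139KO (edgeR adjusted p = 0.336). Against WT it became 1.67 (edgeR adjusted p = 0.0420) when the HSPC libraries over 25% Gm26917 were used alone, and −0.43 with those under 25%. Ptges3 has a near-identical pseudogene, so its counts are uncertain.

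Hpgds (chr6:65117293-65144908, minus strand), the haematopoietic synthase of prostaglandin D2, rose from a low level. It was at 1.51, 1.44, 0.528 and 0.478 CPM in WT HSPC, at 0.592, 0.997, 0.611 and 0.552 CPM in Mir139KO HSPC, and at 6.01 to 12.4 CPM (median 8.40) in MLL-AF9. The groups did not overlap, with a log2 fold change of 3.04 ± 0.45 against WT (8.23-fold, edgeR adjusted p = 0.000172) and 3.55 ± 0.36 against Mir139KO (11.7-fold, edgeR adjusted p = 5.61e-06). Hpgds is known from mast cells and megakaryocytes. The pooled list of mast cell, basophil and eosinophil markers and that of megakaryocyte and platelet markers were lower in MLL-AF9, at the values given above. In the first list Prss34 alone stood at 360 to 1216 CPM in WT HSPC, so its sum does not single out mast cells. The part of these cells in the level of Hpgds was not tested.

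Of the receptors, only Ptger4 (chr15:5206661-5244187, minus strand) could be measured, and only outside the sequence it shares with its neighbours. It was at 22.5, 22.6, 8.61 and 12.7 CPM in WT HSPC and at 10.7, 22.8, 19.6 and 14.6 CPM in Mir139KO HSPC. In MLL-AF9 it was at 15.8, 16.1 and 10.7 CPM (neo) and 24.4, 14.6 and 27.4 CPM (puro), so that all groups overlapped. The log2 fold change was 0.12 ± 0.36 against WT (edgeR adjusted p = 0.789) and 0.07 ± 0.31 against Mir139KO (edgeR adjusted p = 0.846). After a correction for GC content it was −0.78 against WT (edgeR adjusted p = 0.0295) and −0.95 against Mir139KO (edgeR adjusted p = 0.0095), so the direction of Ptger4 rests on that choice.

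Slco2a1 (chr9:102988712-103096002), the prostaglandin uptake transporter, was rare in HSPC and rarer in MLL-AF9. It had 11, 15, 10 and 15 counts in WT HSPC, 6, 2, 8 and 12 counts in Mir139KO HSPC, 3, 0 and 2 counts in the neo cultures and 1, 2 and 0 counts in the puro cultures. Every MLL-AF9 culture was at or under the floor of 3 counts. The ratio of summed counts, each over the summed library sizes, was 13.3 for WT over MLL-AF9 (95% exact interval 6.27 to 32.5) and 8.66 for Mir139KO over MLL-AF9 (3.85 to 22), for counting error only. Slco2a1 passed the count filter against WT only through the WT libraries, where it is high, so it had to differ and its fitted log2 value of −3.69 ± 0.64 (edgeR adjusted p = 0.000485) is given as a description. Against Mir139KO the gene did not pass the filter.

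Of the 10 genes, 9 could be tested between MLL-AF9 and WT HSPC. Hpgd, Hpgds, Ptgs1, Ptgs2 and Ptges rose, Ptges2 and Slco2a1 fell, and Ptges3 and Ptger4 did not pass. This was 7 of 9 at adjusted p under 0.05, where 62.2% of the 17077 genes tested passed (32.8% higher in MLL-AF9 and 29.4% lower). In 7 of 9 the libraries of the groups did not overlap, against 50.5% of all genes. Between MLL-AF9 and Mir139KO HSPC, 6 of 8 passed (5 higher, 1 lower), where 69.3% of 16953 genes passed (37.3% higher and 31.9% lower), and 6 of 8 did not overlap, against 58.0%. Slco2a1 passed the count filter only through WT and Ptgs2 only through MLL-AF9, and without these the count against WT was 5 of 7. Ptgs2 is also among the 6 that passed, and the 6 that did not overlap, against Mir139KO. So many genes differed in these comparisons that the counts of called members are close to the background. The median log2 fold change of the tested members was 2.25 against WT and 2.32 against Mir139KO, beside 0.14 and 0.16 over all genes tested.

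**Figure D2:**
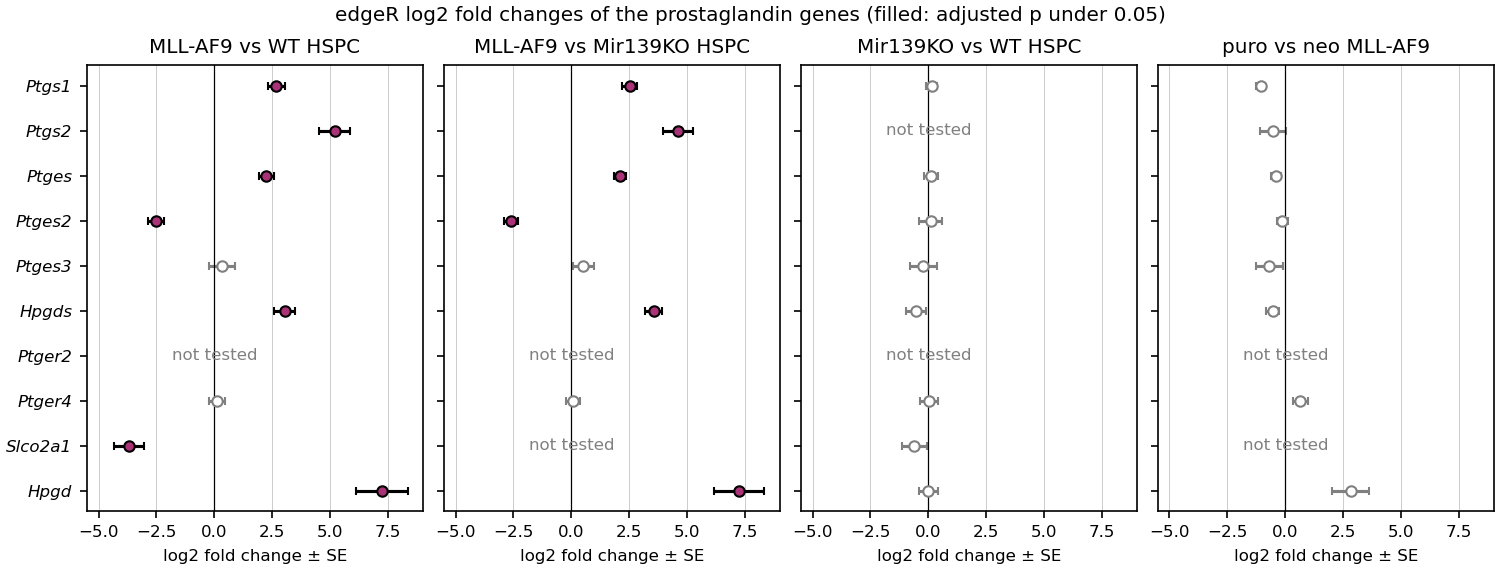
Log2 fold change with its SE (edgeR) for the tested members in MLL-AF9 against WT HSPC, MLL-AF9 against Mir139KO HSPC, Mir139KO against WT HSPC and puro against neo MLL-AF9. Filled points have an adjusted p under 0.05. Hpgd is farthest from 0 in both MLL-AF9 comparisons, at 7.25 and 7.24, Ptges2 lies at −2.51 and −2.62, and no point is filled in the other 2 panels.

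Levels of different genes were compared per length. Since reads in introns appear to have been counted as well, 2 scales are given, CPM per kb of exon and CPM per kb of the gene's span outside other genes. Per kb of exon, Ptges3 led in WT HSPC with a mean of 49.1, ahead of Ptgs1 (8.90) and Ptges2 (8.40), whose ranges overlapped. Ptger4 (2.5), Hpgd (1.07), Ptges (0.920), Hpgds (0.154), Ptgs2 (0.0314) and Slco2a1 (0.0270) followed, with overlapping ranges for Ptger4 and Hpgd, Hpgd and Ptges, and Ptgs2 and Slco2a1. Mir139KO HSPC had the same order. In the puro cultures Hpgd was first with 296, and all 3 lay above the highest value of Ptges3, which was second with 48.6. In the neo cultures Ptgs1 (78.1), Ptges3 (76.9) and Hpgd (41.5) had overlapping ranges. Per kb of span Hpgd was again first in the puro cultures, at 21.8 against 7.37 for Ptgs1, with no overlap. On that scale it followed 2 genes in the neo cultures, at 3.06 behind Ptgs1 (15.3) and Ptges3 (9.31), and followed 5 genes in WT HSPC, at 0.0790.

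The share of Hpgd in the summed level of the 10 genes per kb of exon was 1.10% to 1.95% in WT HSPC and 1.06% to 2.05% in Mir139KO HSPC. It was 5.70%, 32.5% and 14.2% in neo 1, neo 2 and neo 3, and 73.5% to 76.2% in the puro cultures. Per kb of span the share was 0.303% to 0.931% in WT HSPC, 2.35% to 18.3% in the neo cultures and 53.2% to 60.3% in the puro cultures. On both scales the degrading enzyme thus made up the larger part of the measured transcripts in the puro cultures. The ratio of Hpgd to Ptgs1 per kb of exon was 0.0468 to 0.197 in HSPC. It was 0.0905, 1.32 and 0.4 in the neo cultures and 5.54, 11.2 and 6.64 in the puro cultures, and neo 1 therefore lay within the HSPC range.

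**Figure D3:**
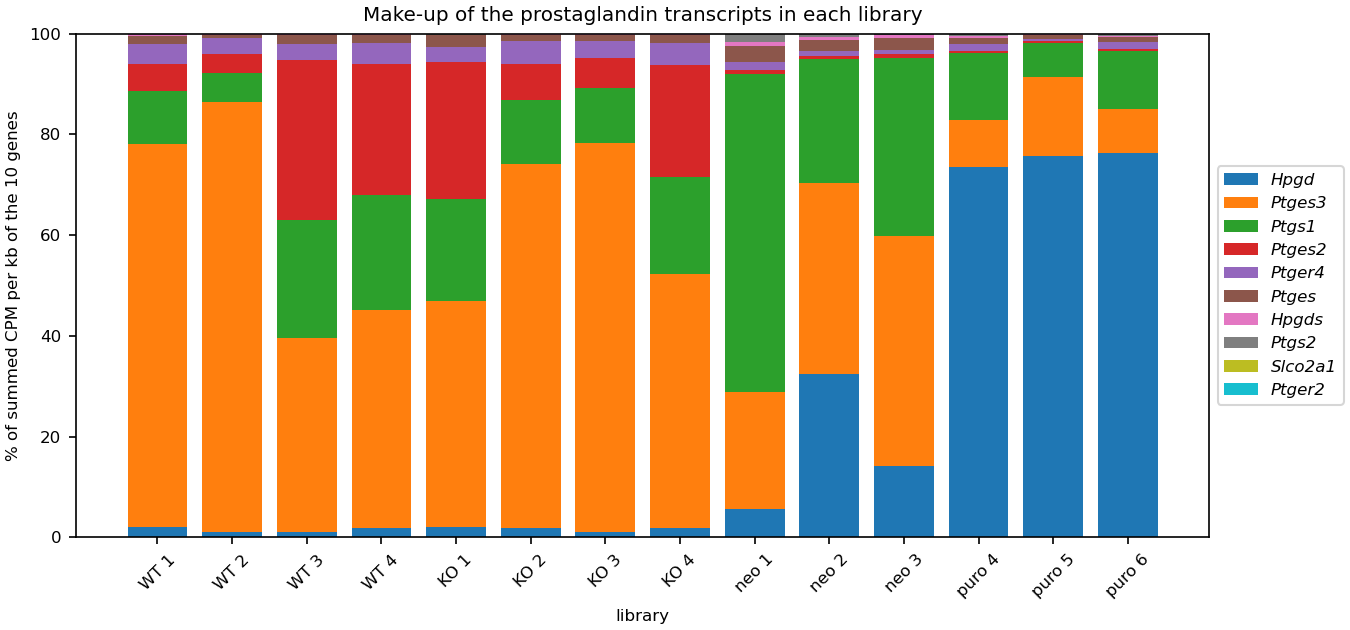
Share of each gene, in percent, in the summed CPM per kb of exon of the 10 genes, 1 stacked bar for each library. Ptges3 takes 38.5% to 85.2% in WT HSPC, Ptgs1 takes 24.7% to 63.0% in the neo cultures and Hpgd takes 73.5% to 76.2% in the puro cultures.

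Between Mir139KO and WT HSPC, 8 members were tested and 0 passed, as did 0 (0%) of all 15056 genes. At an unadjusted p under 0.05 the counts were 0 of 8 members and 86 genes (0.571%). DESeq2 also called 0 genes. Hpgd was at 1.82 ± 0.361 CPM in Mir139KO and 1.81 ± 0.882 CPM in WT HSPC (SD, n = 4 each), with a log2 fold change of 0.01 ± 0.39. Leaving out a library moved that value from −0.25 to 0.28. The other fold changes on the log2 scale were −0.54 ± 0.44 for Hpgds, 0.14 ± 0.23 for Ptgs1, 0.11 ± 0.32 for Ptges, 0.10 ± 0.49 for Ptges2, −0.21 ± 0.60 for Ptges3, 0.02 ± 0.38 for Ptger4 and −0.61 ± 0.55 for Slco2a1. Ptgs2 was under the count filter and its ratio of summed counts was 1.43 (95% exact interval 0.805 to 2.57). In all of these genes the Mir139KO and WT libraries overlapped. Standard errors of 0.23 to 0.60 are wide, so changes of that size could not be detected with these libraries.

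Several members differed between the HSPC libraries with a low and a high share of Gm26917. Ptges2 was at 22.1 to 26.7 CPM in the 4 libraries under 25% and at 57.6 to 72.0 CPM in the 4 over 25%, whereas Ptges3 was at 117 to 213 and 33.6 to 57.3 CPM. Ptger4 was at 19.6 to 22.8 and 8.61 to 14.6 CPM, and Hpgds at 0.611 to 1.51 and 0.478 to 0.592 CPM. These 4 of the 8 members tested did not overlap between the classes, where 65.0% of all genes did not. Hpgd overlapped, at 1.56 to 2.79 and 0.726 to 1.82 CPM. Each class held 2 WT and 2 Mir139KO libraries, and what sets the share of Gm26917 was not tested.

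Among the MLL-AF9 cultures, the vector moved with the level of Hpgd and, in the other direction, with that of Ptgs1. The neo cultures had a mean Hpgd level of 69.9 ± 67.6 CPM and the puro cultures of 498 ± 210 CPM (SD, n = 3 each), and the highest neo value, 145 CPM, lay under the lowest puro value, 350 CPM. The log2 fold change was 2.82 ± 0.80, 7.04-fold, with an edgeR adjusted p of 0.185. Ptgs1 was at 303 ± 56.8 CPM in neo and 146 ± 5.78 CPM in puro, a log2 fold change of −1.06 ± 0.20 with an edgeR adjusted p of 0.0727. An exact permutation test of 3 against 3 cultures cannot give a p below 0.1 and so cannot pass 0.05. Of the puro cultures, 4 and 6 were much alike (Pearson r of log2 CPM 0.995, across genes) and puro 5 stood apart from both (0.935 and 0.936). With puro 4 and 6 summed into 1 sample, the log2 fold changes were 2.99 and −1.05 with edgeR adjusted p = 0.382 for Hpgd and 0.333 for Ptgs1. Neither gene passed in either form, but both did when all 14 libraries shared an estimate of the spread, with edgeR adjusted p = 0.0220 for Hpgd and 0.0344 for Ptgs1. DESeq2 called both as well (adjusted p = 0.00416 and 0.000378). Both settings called more genes of all kinds, 761 of 17994 with the shared estimate and 1326 of 16503 with DESeq2, against 144 of 16503 in the main fit. Without neo 2 the log2 fold change of Hpgd was 3.92 and without neo 1 it was 2.36.

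Of the 8 members tested between the vectors, 0 passed, and 0.873% of the 16503 genes did. The libraries did not overlap in 4 (Hpgd, Hpgds, Ptgs1 and Ptges), against 19.7% of all genes. Hpgds was at 8.55, 12.4 and 8.65 CPM in neo and 6.01, 8.26 and 6.23 CPM in puro, a log2 fold change of −0.54 ± 0.27. The values for Ptges, Ptgs2, Ptges2, Ptges3 and Ptger4 were −0.41 ± 0.22, −0.54 ± 0.57, −0.13 ± 0.24, −0.70 ± 0.58 and 0.65 ± 0.34. Some markers moved with the vector as well, and others did not. Of 5 HSPC markers tested 0 were called, with a median log2 fold change of 2.90 beside −0.02 over all genes. Gata2 stood at 0.495 to 2.64 CPM in neo and 8.52 to 9.80 CPM in puro. Cd34 (0.0388 to 0.634 and 1.28 to 1.66 CPM) and Flt3 (0.0792 to 0.310 and 0.799 to 5.62 CPM) did not overlap either, whereas Kit and Ly6a did. Of 8 monocyte and macrophage markers tested 1 was called higher in puro, and the summed level of that list was 270 to 393 CPM in neo and 787 to 1029.8 CPM in puro. Ccr2 (2.27 to 5.64 and 114 to 377 CPM) and Ly6c2 (146 to 237 and 374 to 596 CPM) made up most of the gap. Csf1r did not overlap either, at 2.82 to 6.83 and 8.40 to 71.1 CPM. Adgre1, Cd68, Cx3cr1, Fcgr1, Mrc1, C1qa and C1qb overlapped between the vectors. Of 7 neutrophil markers tested 1 was called lower in puro, and that list summed to 1672 to 3799 CPM in neo and 265 to 1811 CPM in puro. Of the fusion targets, Meis1 stood at 127 to 246 CPM in neo and 445 to 917 CPM in puro and Hoxa10 at 52.2 to 70.8 and 90.0 to 119.8 CPM, but Hoxa9 overlapped, at 133 to 161 and 124 to 139.9 CPM, and none of the 3 passed the test. The part of these markers in the levels of Hpgd and Ptgs1 was not tested. Vector and antibiotic changed together and cannot be told apart.

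The other genes of the pathway were read from 4 lists. Of 18 other prostanoid genes, 13 were tested between MLL-AF9 and WT HSPC, of which 4 rose and 3 fell, with a median log2 fold change of 0.04. Over all genes 32.8% rose and 29.4% fell, so these counts are near or under the background. Thromboxane synthase Tbxas1 rose by 2.5 ± 0.31 on the log2 scale (edgeR adjusted p = 4.66e-05), from a mean of 24.9 CPM in WT HSPC to 110 in neo and 173 in puro. Ptgr1, a reductase of the next step of prostaglandin breakdown after Hpgd, rose by 1.77 ± 0.23 (edgeR adjusted p = 6.34e-05), from 33.1 to 116 and 114 CPM. The thromboxane receptor Tbxa2r (−2.92 ± 0.53, edgeR adjusted p = 0.000594) and the inhibitory PGE2 receptor EP3, Ptger3 (−1.77 ± 0.52, edgeR adjusted p = 0.0101), fell. The mean of Ptger3 was 6.69 CPM in WT HSPC, 5.74 in Mir139KO HSPC, 3.06 in neo and 0.891 in puro. Tbxas1 has 34.3% of its span inside other genes, where counts appear to be lost. Ptger1 and Akr1b3 lie wholly inside other genes and had 0 counts in all libraries, so they were not measured.

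Arachidonic acid reaches the cyclooxygenases when phospholipases and lipases release it, and 12 genes of release and recycling were all tested. Of these, 4 rose and 4 fell against WT HSPC, with a median of −0.39. These 8 of 12 compare with 62.2% of all genes. Without neo 1, 5 passed in place of 8. Pla2g4a, the cytosolic phospholipase A2 that releases arachidonic acid from membranes, rose by 3.72 ± 0.51 (log2, edgeR adjusted p = 9.91e-05), from 11.7 CPM in WT HSPC to 158 in neo and 153 in puro. Dagla, a diacylglycerol lipase, rose by 5.26 ± 0.76 (edgeR adjusted p = 0.000144), from 0.476 to 30.1 and 7.05 CPM. Faah, which breaks down the endocannabinoid anandamide to arachidonic acid, fell by 4.71 on the log2 scale (SE 0.54, edgeR adjusted p = 3.02e-05), and Pla2g4c fell by 1.81 (SE 0.64, edgeR adjusted p = 0.0260).

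The lipoxygenase and leukotriene branch competes for the same acid. Of its 14 genes, all tested, 4 rose and 4 fell, again beside 62.2% called over all genes, with a median of −0.0039. The glutathione transferase Mgst2 rose by 4.21 ± 0.57 (log2, edgeR adjusted p = 9.67e-05) and the leukotriene receptor gene Cysltr1 by 3.36 ± 0.72 (edgeR adjusted p = 0.00165), with 69.9% of the span of Cysltr1 inside other genes. Alox15 and Alox12, a pair of lipoxygenases, fell by 6.32 and 5.12 on the log2 scale (SE 0.50 and 0.58, edgeR adjusted p = 2.41e-06 and 2.96e-05). Alox15 is known from eosinophils and Alox12 from platelets, and Alox15 went from 19.6 to 0.235 CPM in neo and 0.255 in puro, and Alox12 from 32.5 to 1.23 and 0.644. The pooled lists that hold eosinophil and platelet markers were lower in MLL-AF9, as given above, and the part of these cells in the falls was not tested.

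The cAMP arm that carries the signal of EP2 and EP4 held 19 genes, all tested, of which 10 rose and 3 fell, with a median of 1.20 beside 0.14 over all genes. The 13 of 19 called in either direction lie near the 62.2% of all genes called. By direction, the 10 of 19 that rose exceed the 32.8% over all genes, and the 3 that fell lie under the 29.4%. Whether the list differs from other genes was not tested. The phosphodiesterases Pde3b and Pde4d, which break down cAMP, rose by 4.95 ± 0.52 and 4.28 ± 0.33 on the log2 scale (edgeR adjusted p = 1.59e-05 and 2.02e-06). Pde4d went from 53.0 CPM in WT HSPC to 1216 in neo and 868 in puro. Adcy6, an adenylate cyclase that makes cAMP, fell by 7.31 (SE 0.93, edgeR adjusted p = 6.44e-05), from 65.3 to 0.0576 and 0.769 CPM. Its neo mean lies at the floor of 3 counts, so it could not pass the count filter without the WT HSPC libraries, where it is high. The fitted value of Adcy6 is therefore given as a description, and the gene is among the 3 counted as falling. Prkaca, a catalytic subunit of protein kinase A, fell by 1.6 (SE 0.27, edgeR adjusted p = 0.000403), from 111 to 34.1 and 40.5 CPM.

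Against Mir139KO HSPC, which shares the MLL-AF9 libraries, the numbers that rose and fell were 4 and 5 of 14 other prostanoid genes, 4 and 6 of 12 release genes, 4 and 5 of 14 lipoxygenase genes and 13 and 5 of 19 cAMP genes. Over all genes 69.3% were called there, 37.3% higher and 31.9% lower. Between Mir139KO and WT HSPC 0 genes of these lists passed (14, 12, 13 and 19 tested), and likewise between puro and neo (14, 12, 14 and 18 tested).

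**Figure D4:**
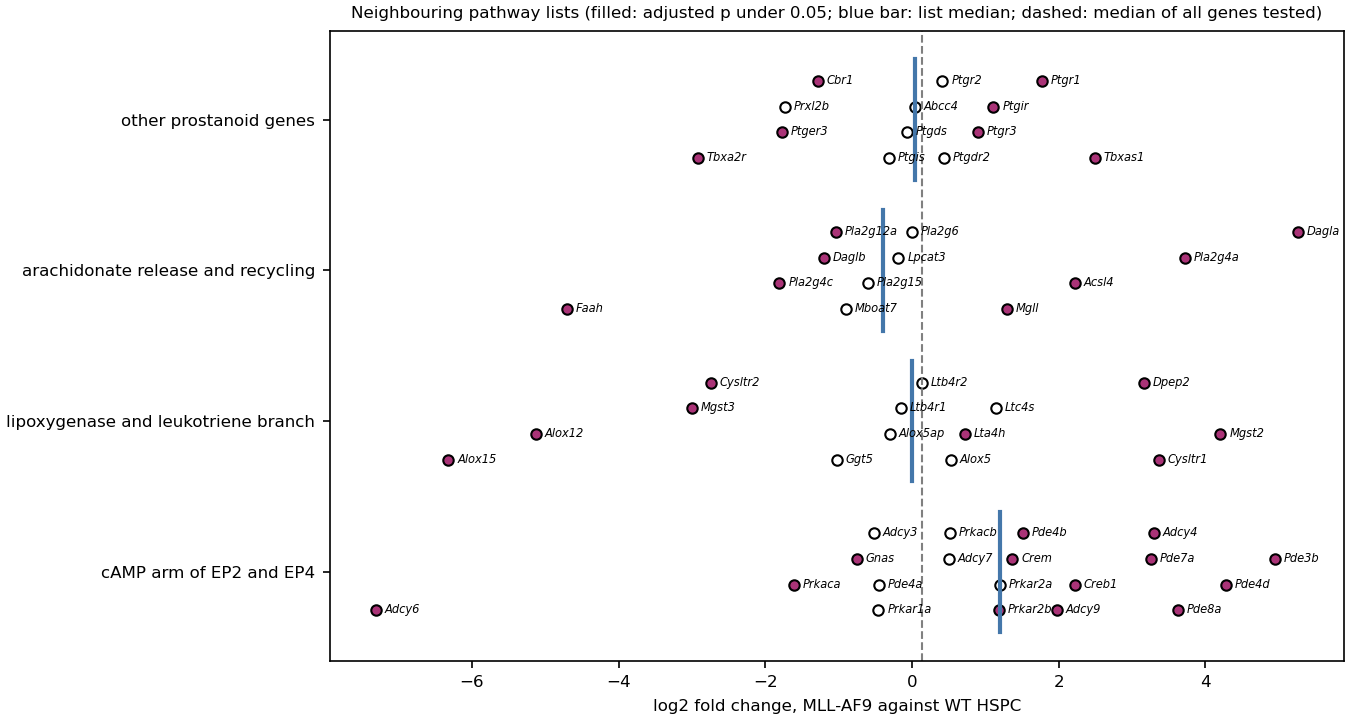
Log2 fold change in MLL-AF9 against WT HSPC for each tested gene of the 4 pathway lists. Blue bars are list medians, at 0.04, −0.39, −0.0039 and 1.20, and the dashed line is the median of all genes tested, 0.14.

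To ask which genes have the pattern of Hpgd, the log2 CPM profile of each of 17076 genes over the 14 libraries was centred on its own mean and compared with that of Hpgd by the root mean square (RMS) difference. The 5 closest were Glyat (RMS 0.78), 8430419K02Rik (0.91), Glra3 (1.04), Rnf152 (1.04) and Adgb (1.09), where the median gene was at 3.43. They were picked for matching Hpgd in these same libraries, so low counts in HSPC and a rise in MLL-AF9 follow from the choice. Glyat, 8430419K02Rik, Glra3 and Rnf152 had under 10 counts in every HSPC library and passed the count filter only through the MLL-AF9 libraries. Glyat, a glycine acyltransferase known from liver and kidney, had 1 count in the 8 HSPC libraries together and stood at 0.421 to 2.71 CPM in neo and 7.25 to 12.9 CPM in puro. Adgb, which codes for androglobin, was at 0.0330 to 0.465 CPM in HSPC, 6.19 to 11.9 in neo and 20.6 to 61.8 in puro. Glra3, a glycine receptor subunit, was at 0.969 to 10.2 CPM in neo and 4.38 to 15 in puro. With a prior count of 0.5 in place of 2, 3 of the 5 were again among the closest 5, whereas Glra3 moved to rank 67 and Rnf152 to rank 41. Of the members, Ptgs2 was closest, at rank 341 (RMS 1.82), followed by Hpgds at rank 837 (RMS 2.07).

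**Figure D5:**
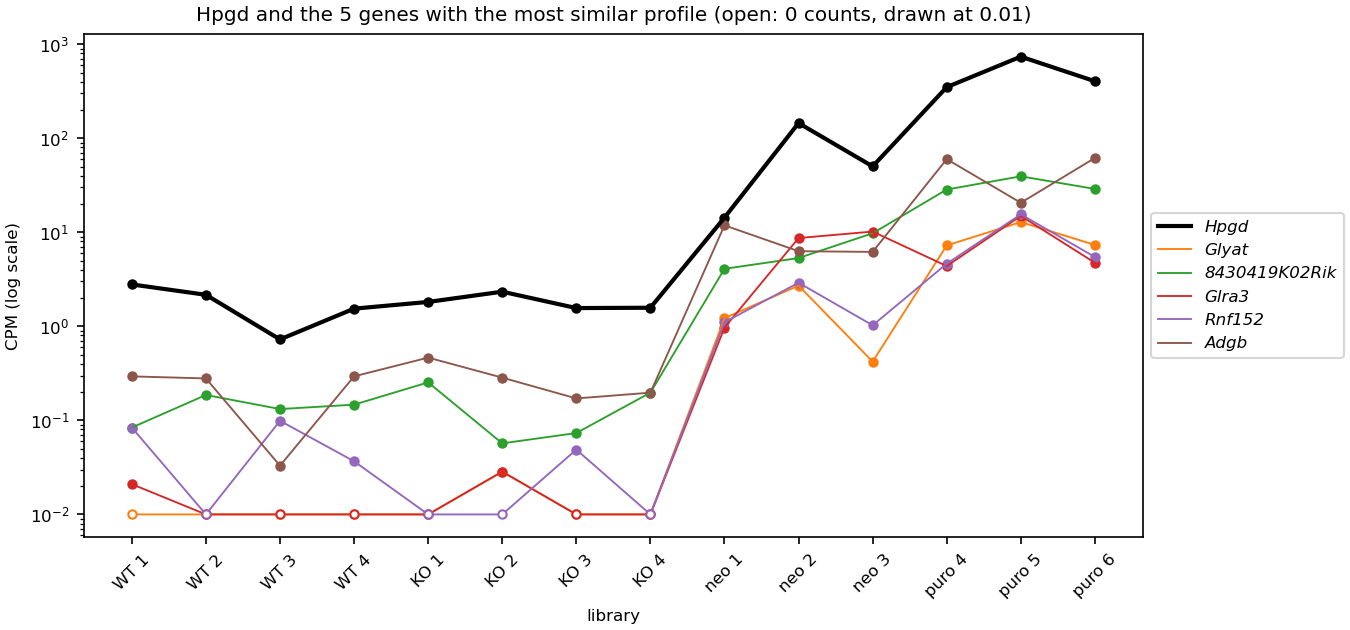
Level of Hpgd and of the 5 genes with the most similar profile in each of the 14 libraries, in CPM on a log axis, in the order WT HSPC, Mir139KO HSPC, neo and puro MLL-AF9. All 6 lines are low over the HSPC libraries and high over the MLL-AF9 libraries, where Hpgd spans 14.3 to 738 CPM and Glyat 0.421 to 12.9 CPM.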

How the data were processed

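RNA-seq counts per gene were analysed for 4 WT HSPC, 4 Mir139KO HSPC and 6 MLL-AF9 libraries. The values are raw counts deposited by the authors, who aligned reads to GRCm38 (mm10) and counted them per gene. The submitters' processing notes name STAR 2.5.3e, featureCounts 1.6.0, FastQC 0.11.8, MultiQC and DESeq2 1.22.2. Of 849 protein-coding genes wholly inside other genes with little exon overlap, 838 have 0 counts in all libraries, as counting over whole gene spans without strand would give. The counting mode itself is inferred from this and not given in the sources used here. The 14 columns came from the count table of these groups, and 10 columns of another series in a second table were not used.

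Groups followed the labels. Genes with at least 10 counts in as many libraries as the smaller group holds were tested between 2 groups at a time with the quasi-likelihood F test of edgeR 4.0.16 (limma 3.58.1, R 4.3.3), TMM scaling, robust dispersion and Benjamini-Hochberg adjustment over all genes tested (threshold 0.05). SE was the absolute log2 fold change over the square root of F. Floors (3 counts) and intervals cover counting error only. The fits were tested on simulated counts with a small set of changed genes, as many up as down, and the same dispersion for all genes. That setting lacks the many changed genes and the uneven Gm26917 shares of these data, so it does not test the scaling. Nothing says that replicates came from separate animals or cultures, so p-values measure the spread between these libraries, which may be technical. Alternatives were DESeq2 1.42.0, its size factors, total counts only, no filter, a replicate block, a GC correction (spline, 5 df), Gm26917 left out, all 14 libraries in a single fit, each library left out, HSPC libraries under or over 25% Gm26917, that class as a covariate, MLL-AF9 replicates 4 and 6 summed, each vector alone and a prior count of 0.5. The 2 added alternatives, on the pathway lists and the members by Gm26917 class, were chosen after seeing the data.

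The members, lists and tests were chosen with earlier results of these data known. Named genes were all members, the 2 largest called rises and falls of each list in MLL-AF9 against WT HSPC, and the 5 genes with the profile most like Hpgd. Coordinates are GRCm38 (GENCODE M21), and microRNA and promoter sequences are from RefSeq on GRCm38.p6, where all 10 members matched. Tables and figures used Python 3.11.15, pandas 2.3.3, numpy 2.4.6, scipy 1.17.1 and matplotlib 3.10.9.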

Additional observations from a re-analysis of the deposited data

Results flagged for a closer look

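In 27 groups of libraries tested for a value far from the others, chance alone flags about 1 in 20. Hpgds stood at 0.997 CPM in Mir139KO HSPC replicate 2, where the nearest of the other 3 libraries was at 0.611 CPM. Ptges stood at 5.79 CPM in WT HSPC replicate 1, where the nearest of the others was at 3.03 CPM.

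Hpgds also moved in opposite directions in the 2 classes of HSPC libraries. Its mean CPM in Mir139KO over that in WT was 0.544 in the libraries under 25% Gm26917, where both Mir139KO libraries lay below both WT libraries, and 1.14 in those over 25%, where both lay above. The difference between the classes was not tested.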

How the results depend on the processing

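Over 57 results and 1120 alternatives, 1045 kept direction and side of the threshold, 0 lost a call, 7 gained one, 49 changed sign and 19 counts moved. Hpgd was called in MLL-AF9 in all 24 alternatives, at 4.06 to 8.09 (log2) against WT and 3.81 to 8.08 against Mir139KO, lowest with GC correction and replicate block. Hpgds, Ptgs1, Ptgs2, Ptges and Ptges2 kept direction and call in both comparisons in the same alternatives, and Slco2a1 against WT. Total counts only raised the median of all genes by 0.55 and 0.69 and the higher share of calls from 52.7% to 68.3% (WT) and from 53.9% to 71.4% (Mir139KO). The replicate numbers were taken as running numbers and not as pairs. Deviations of libraries with the same number correlated at −0.06 to 0.09, 0.02 to 0.19, −0.58 to 0.64 and −0.31 to 0.45 in the 4 comparisons. Between Mir139KO and WT the correlation was positive where both libraries shared a Gm26917 class and negative where they did not. Whether the numbers mark pairs therefore cannot be decided from these values. The replicate block gave 1 call between the vectors, Hpgd at 3.30 (edgeR adjusted p = 0.0426), and 3.31 (0.0315) with GC correction, where the release list had 1. With all 14 libraries in a single fit 2 members were called (Hpgd 2.82) and 2, 1 and 1 genes of the prostanoid, release and cAMP lists. With DESeq2 2 members were called (Hpgd 2.82) and 3, 1, 2 and 1 genes of the prostanoid, release, lipoxygenase and cAMP lists. Leaving out a library gave 0 to 2 (prostanoid), 0 to 3 (release) and 0 to 1 (cAMP), the highest without puro 5. Over all genes the calls between the vectors went from 144 to 0 without neo 2 or neo 3, 41 without neo 1, 5 without puro 4, 990 without puro 5, 3 without puro 6, 5 with MLL-AF9 replicates 4 and 6 summed, 221 with no filter, 214 with the block, 761 with all 14 libraries and 1326 with DESeq2. The release list went from 8 calls to 5 without neo 1 (5 to 9 over the libraries left out) against WT and from 10 to 5 against Mir139KO with HSPC libraries under 25%, and the lipoxygenase list from 9 to 5 with those over 25%. With a prior count of 0.5, 3 of the genes most like Hpgd stayed among the 5.

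Sign changes, of which 4 involved a call, were these. Ptges3 against WT was −0.49 with GC correction, −0.55 with block added, −0.43 with HSPC libraries under 25% and −0.026 with puro only, and against Mir139KO −0.58, −0.67 and −0.038 with the first 3. Ptger4 against WT was −0.78, −0.95 and −0.36 with the same 3 and −0.21 with neo only. Against Mir139KO it was −0.95, −1.12 and −0.28, −0.050 with the block, −0.029 with replicates 4 and 6 summed and −0.26 with neo only. Between Mir139KO and WT, total counts gave Hpgd −0.19, Ptges −0.077 and Ptger4 −0.12, and libraries under 25% gave −0.33, −0.20 and −0.074. Ptges3 was 0.075 with GC correction, 0.11 with block added, 0.45 with libraries over 25% (Hpgds 0.15) and 0.020 with the class as covariate. Leaving out a library moved Ptger4 from −0.12 to 0.29 against WT and −0.12 to 0.24 against Mir139KO. Between Mir139KO and WT it moved Hpgd from −0.25 to 0.28, Ptges from −0.00044 to 0.41, Ptges2 from −0.22 to 0.36, Ptges3 from −0.52 to 0.34 and Ptger4 from −0.18 to 0.20, and between the vectors Ptgs2 from −0.94 to 0.0084. The cause was not tested. Depth limits Ptgs2 and Slco2a1 in HSPC, with 1 to 16 counts a library.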

Other observations

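The neighbours of Hpgd on chromosome 8 were read within 500000 bases on either side, a window chosen after values had been seen. It held 13 genes, of which 4 are protein-coding and 3 could be tested between MLL-AF9 and WT HSPC. All 3 were called higher in MLL-AF9, where 32.8% of all genes tested were. Glra3, described below, passed the count filter only through the MLL-AF9 libraries and so had to be higher. With this and the choice of window, the 3 genes give no result about the neighbourhood. Cep44, a centrosomal protein gene 210479 bases after Hpgd, rose by 1.02 ± 0.31 on the log2 scale (edgeR adjusted p = 0.0132), and Fbxo8, an F-box protein gene 230047 bases after it, rose by 1.66 ± 0.42 (edgeR adjusted p = 0.00446).

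Glra3, 164515 bases before Hpgd, had 1 count in WT HSPC, 1 count in Mir139KO HSPC and 2262 counts in MLL-AF9. The ratio of MLL-AF9 to WT HSPC in counts over library size was 1083 (95% exact interval 194 to 42795, counting error only). It stood at 0.969, 8.69 and 10.2 CPM in neo 1, neo 2 and neo 3 and at 4.38, 15 and 4.75 CPM in the puro cultures. Unlike in Hpgd the vectors overlapped, with a log2 fold change of 0.24 ± 0.85 for puro against neo (edgeR adjusted p = 0.926). Whether the difference between these 2 genes in that comparison exceeds the error was not tested.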
